A study of Mus musculus with 22 samples.

Results

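Embryoid bodies are aggregates in which embryonic stem (ES) cells leave pluripotency and form derivatives of the germ layers. The step described here is that of the vehicle-treated bodies between D4 and D9, the number after D being read as the day. It was followed in 4 of the 22 RNA-seq libraries of the series, chosen by their titles. They are 2 libraries of D9 embryoid bodies in 0.1% dimethyl sulfoxide (DMSO) and 2 of D4 embryoid bodies in 0.1% DMSO. Both groups come from the J1 mouse ES cell line, which the labels give for all 22 libraries, with no further allele, reporter or transgene stated. The same step was set beside that of embryoid bodies given tetrabromobisphenol A (TBBPA), a brominated flame retardant, with 1 library at 10 nM and 1 at 100 nM on each day. The labels name no other difference between those bodies and the DMSO bodies. The other 8 control libraries, 2 of untreated ES cells and 2 with DMSO at each of D12, D18 and D28, entered the fit for its estimate of the spread.

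In the mouse, the naive pluripotent state first turns into a formative and primed epiblast, from which the primitive streak gives rise to mesoderm and definitive endoderm while the remainder becomes ectoderm. Visceral and parietal endoderm form the yolk sac layers around it. Nodal, Wnt, BMP, FGF, hedgehog, Notch and retinoic acid signals pattern these layers. Embryoid bodies pass through a related sequence without the body plan of an embryo, so cell types of several layers stand side by side in 1 sample.

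Expected counts came to 18776542 and 18819287 in the D9 libraries, against 18513909 and 18440111 in the D4 libraries, within 18158583 to 18998141 over the series. The D9 libraries listed 17355 and 17332 genes, and the D4 libraries 16915 and 16905. The 10 most abundant genes held 4.46 and 4.54% of the counts at D9, against 5.87 and 5.83% at D4. The mean chi-square per gene was 1.64 between the D9 libraries and 3.38 between the D4 libraries, where 1 is counting noise. Between a D9 and a D4 library it was 119.3 to 123.4. Whether both libraries of a day stem from separate cultures is not stated in the labels. The p-values therefore rest on the spread of these samples alone, and that spread may be technical. Values of a gene are counts relative to the scaled library size (CPM), replicate 1 before replicate 2, and log2 changes are D9 over D4 ± SE with n = 2 libraries on each day. A gene rose or fell when its adjusted p in edgeR's quasi-likelihood test was under 0.05, and otherwise it did not pass. Where both libraries of a day are said to lie above or below those of the other, this describes the named genes only. How often that holds over all genes is not given here. Levels of 1 gene and another are compared only in FPKM, which allows for gene length. Summed levels of a list are in CPM, so long or abundant members weigh more in them. In bulk samples, fewer cells of a type and less RNA per cell cannot be told apart.

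Over all genes, 9849 of 16203 tested (60.8%) passed, of which 5170 rose (31.9%) and 4679 fell (28.9%). With library size alone in place of TMM scaling, 6311 rose and 3459 fell, and the median log2 change of all genes was 0.15 in place of 0.01. The changes below are relative to the TMM scale. Large changes went mainly upward. At least 2-fold, 2490 genes rose (15.4%) and 1289 fell (7.96%), and at least 10-fold, 693 rose and 71 fell. The 51 gene lists of lineages, signals and cell functions name 781 genes, of which 777 were in the tables and 760 were tested. Of these, 449 rose, 172 fell and 139 did not pass. A gene near 0 on 1 day could enter the test only through libraries in which it was higher, so the counts per list are descriptions, to be read beside the shares over all genes. In the plot of these shares by list, most lineage lists lie right of the dashed line for rises. Core and formative pluripotency, replication, ribosomal and respiratory lists lie far left of the line for falls.

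**Figure D1:**
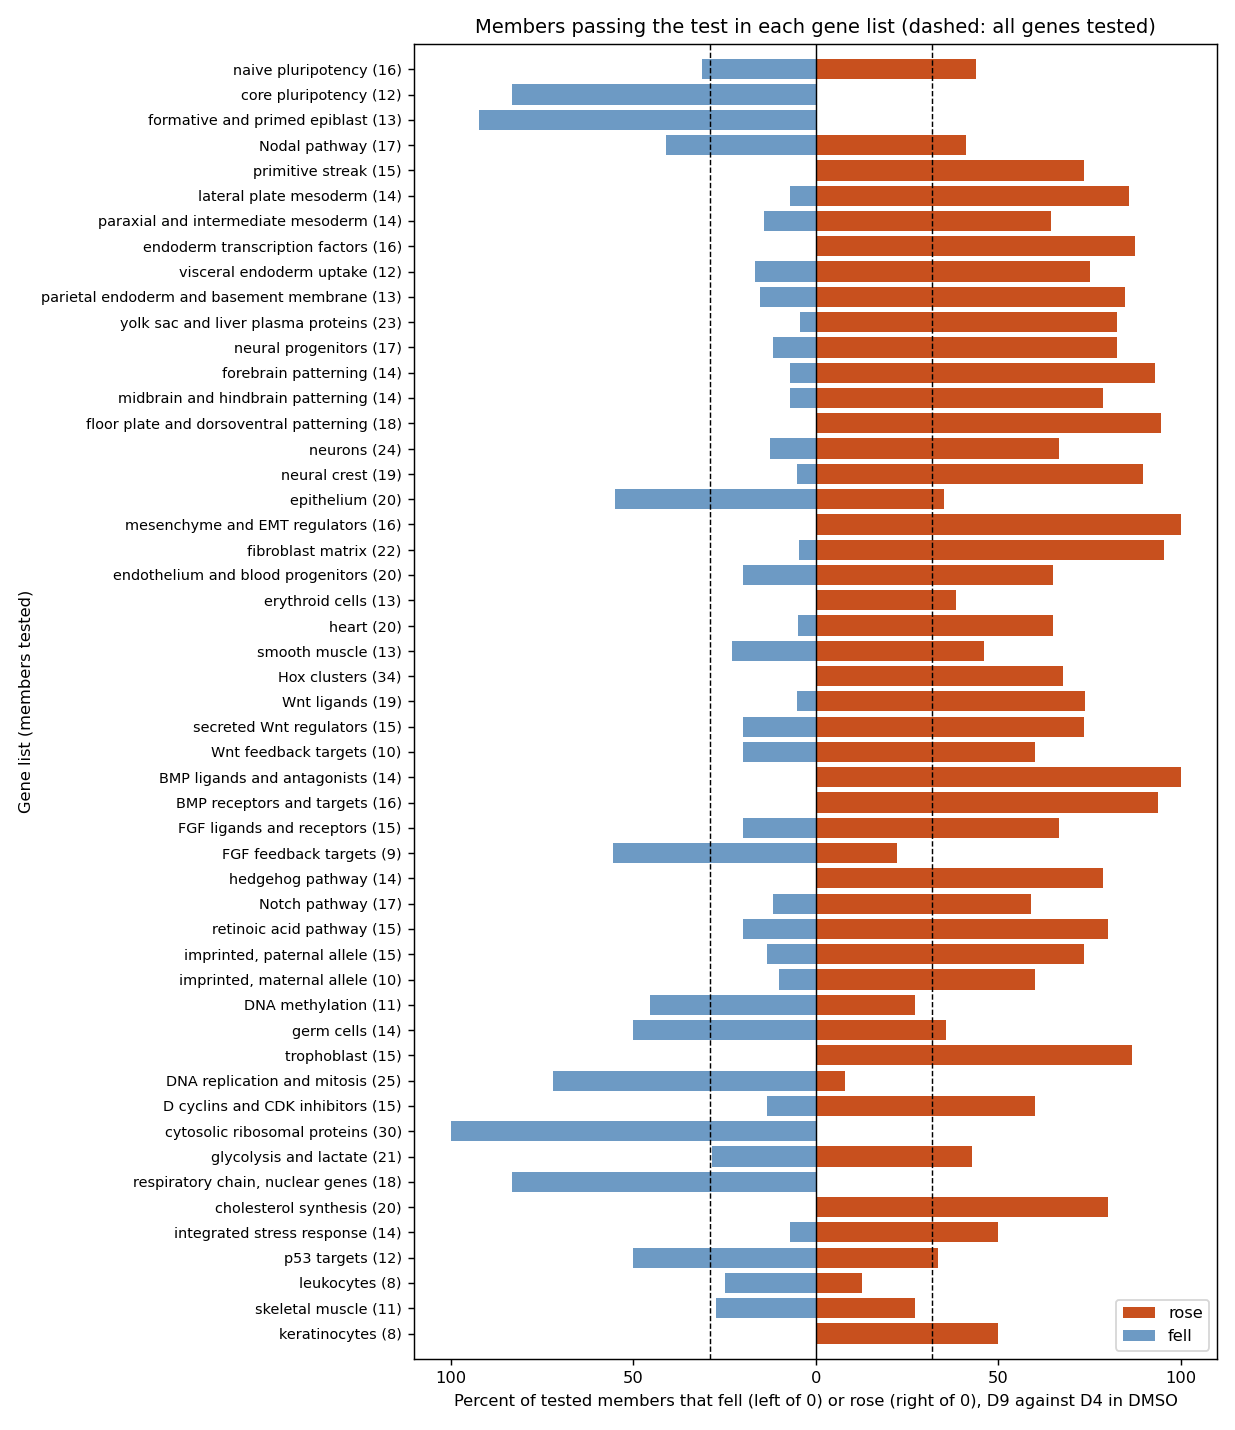
Share of the tested members of each of the 51 gene lists that rose (orange, right of 0) or fell (blue, left of 0) at D9 against D4 in DMSO, in percent, with the number tested in parentheses. The dashed lines mark the 31.9% of all tested genes that rose and the 28.9% that fell; all 14 BMP ligands and antagonists rose and all 30 ribosomal proteins fell.

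The following genes are among the 15 largest rises by fitted change. Shh, the secreted hedgehog ligand of notochord and floor plate (gene ID 20423), had 32.7 and 30.02 CPM at D9, against 0.0596 and 0 CPM at D4, a ratio of 1055-fold (95% counting interval 189 to 41689). Unc5c, a netrin receptor that repels axons, had 33.1 and 32.3 CPM at D9, against 0 and 0.0593 CPM at D4, a ratio of 1100.1-fold (95% counting interval 197 to 43485). Robo2, a receptor for the Slit guidance proteins, had 24.97 and 25.3 CPM at D9, against 0.119 and 0 CPM at D4, a ratio of 423-fold (95% counting interval 117 to 3494). All 3 stood at 0 to 2 counts over the D4 libraries together, and their D9 libraries lay close to each other. Nrp1, a coreceptor for semaphorins and VEGF, had 43.99 and 44.5 CPM at D9, against 0.179 and 0.237 CPM at D4, a log2 change of 7.69 ± 0.17 (adjusted p = 2.32e-13). Foxb1, a forkhead factor of the diencephalon and midbrain, had 17.4 and 17.9 CPM at D9, against 0.0596 and 0.0593 CPM at D4, a ratio of 297-fold (95% counting interval 81.9 to 2456). Pappa, a protease that frees insulin-like growth factors from their binding proteins, had 39.7 and 39.6 CPM at D9, against 0.179 and 0.178 CPM at D4 (7.74 ± 0.22). Irx1, an Iroquois homeobox factor, had 23.4 and 25.9 CPM at D9, against 0.358 and 0 CPM at D4 (7.06 ± 0.32). Only genes whose D9 and D4 libraries did not overlap could be chosen for these rises.

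The following genes are among the 15 largest falls by fitted change. Ackr4, a scavenging receptor for chemokines, had 1.06 and 0.423 CPM at D9, against 18.5 and 18.2 CPM at D4, a log2 change of -4.61 ± 0.27 (adjusted p = 3.17e-09). Cxcl10, an interferon-induced chemokine, had 1.22 and 1.17 CPM at D9, against 15.2 and 13.2 CPM at D4 (-3.56 ± 0.19). Oasl2, an interferon-induced protein of the oligoadenylate synthetase family, had 2.60 and 2.81 CPM at D9, against 31.8 and 30.3 CPM at D4 (-3.52 ± 0.14). The D9 libraries of all 3 lay far below the D4 libraries. Cbr3, a carbonyl reductase, had 5.63 and 5.13 CPM at D9, against 77.2 and 78.3 CPM at D4. Rims4, a protein of the presynaptic active zone family, had 1.12 and 1.43 CPM at D9, against 14.5 and 16.8 CPM at D4. Cdk5r2, an activator of the neuronal kinase Cdk5, had 2.87 and 2.75 CPM at D9, against 29.1 and 34.6 CPM at D4, a log2 change of -3.50 ± 0.18. Trim67, a ubiquitin ligase of the nervous system, had 3.03 and 3.23 CPM at D9, against 46.9 and 50.8 CPM at D4. As with the rises, only genes without overlap of the days could be chosen.

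Of genes at 0 in both D4 libraries, 398 were listed in both D9 libraries. Of the same genes, listed in both D9 libraries or not, 42 averaged 1 CPM or more at D9. In the other direction, 149 genes at 0 in both D9 libraries were listed in both D4 libraries. Listed in both D4 libraries or not, 2 genes at 0 at D9 averaged 1 CPM or more at D4. Of these 2, Rnaset2b had 0 and 3.38 CPM at D4 and did not pass, and H2-Q8 is given below. Folds against 0 are lower bounds set by 3 counts over both libraries of the day. Wnt1, the Wnt ligand of the midbrain to hindbrain boundary and the dorsal neural tube, had 33.5 and 33.6 CPM at D9, at least 376-fold higher than at D4. Dbx1, a homeobox factor of intermediate neural tube progenitors, had 9.94 and 9.27 CPM, at least 108-fold higher. Vnn1, the enzyme pantetheinase, had 6.80 and 6.99 CPM, at least 77.3-fold higher. These 3 came from 0 counts in both D4 libraries and were alike in both D9 libraries. Hapln1, a link protein of hyaluronan matrix, was at least 64.5-fold higher, Rgs5, a pericyte regulator of G proteins, at least 51.4-fold and the proteoglycan gene Lum at least 40.4-fold. Of genes at 0 at D9, H2-Q8, a class Ib major histocompatibility gene with near-identical relatives whose reads may be shared, had 1.43 and 1.78 CPM at D4, and with DESeq2 in place of edgeR its adjusted p was 0.2275. Figla, a germ cell factor that is required for oocyte genes, had 0.835 and 0.653 CPM at D4.

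**Figure D2:**
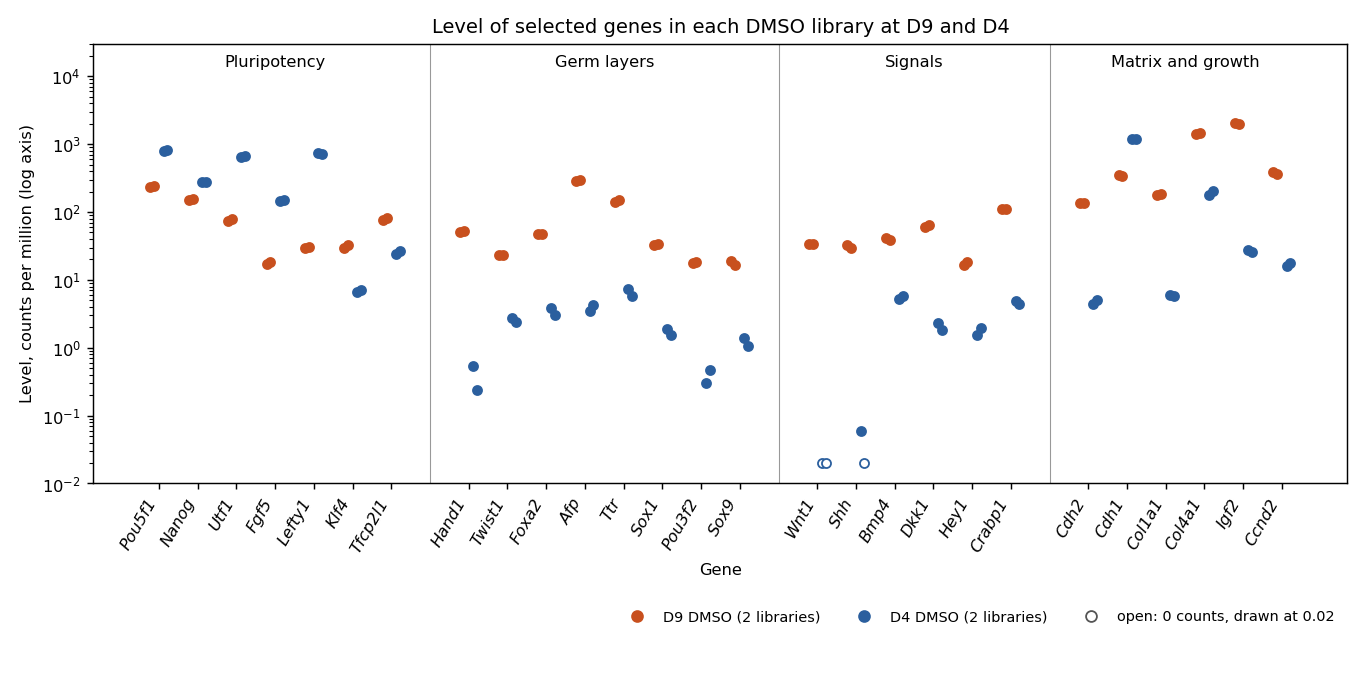
Level in CPM (log axis) of 27 genes in each of the 2 D9 libraries (orange, left in each pair) and 2 D4 libraries (blue, right), with open circles for 0 counts. For each gene drawn, both D9 libraries lie on the same side of both D4 libraries: below for Pou5f1, Nanog, Utf1, Fgf5, Lefty1 and Cdh1, and above for the other 21. The genes were picked with earlier results of these data known, so this describes the drawn genes only.

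Core pluripotency genes fell, while naive factors did not fall together. Of the 12 tested core genes, 0 rose, 10 fell and 2 did not pass, with a median log2 change of -1.24. Pou5f1 (Oct4), the POU factor that holds cells in pluripotency, had 231 and 242 CPM at D9, against 799 and 826 CPM at D4, a log2 change of -1.78 ± 0.07 (adjusted p = 5.50e-11). Nanog, the homeobox factor that stabilises the naive state, had 149 and 156 CPM at D9, against 276 and 281 CPM at D4 (-0.87 ± 0.06). Utf1, a chromatin factor of pluripotent cells, had 73.9 and 80.1 CPM at D9, against 645 and 666 CPM at D4 (-3.09 ± 0.12). The D9 and D4 libraries of these 3 genes did not overlap, and all remained above 70 CPM at D9. Tdgf1 (Cripto), the Nodal coreceptor, had 107 and 110.3 CPM at D9, against 545 and 511 CPM at D4 (-2.28 ± 0.07). Zscan10, a zinc finger factor of ES cells, had 33.5 and 35.5 CPM at D9, against 182 and 182 CPM at D4 (-2.40 ± 0.21). Sox2, the partner of Oct4 that neural progenitors also use, had 249.7 and 240.4 CPM at D9, against 260.0 and 264 CPM at D4 and did not pass (adjusted p = 0.386). Lin28a, an inhibitor of let-7 processing, had 598 and 602 CPM at D9, against 623 and 653 CPM at D4 and did not pass either (adjusted p = 0.679). With the ES libraries left out of the fit, the small decreases of both passed, at adjusted p = 0.03191 for Sox2 and 0.03683 for Lin28a.

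The upstream 250 bases of Nanog (RefSeq, GRCm38.p6, chr6:122707315-122707564, + strand, upstream of the start site) are shown because a pluripotency element lies in them. The capitals mark the composite element of an octamer beside a Sox site, which Oct4 and Sox2 bind, found 151 bases before the start. Of the 32817 windows of this length in the promoter table, searched on both strands, 2 held this element (0.00609%), both of them windows of Nanog. The searched letters are those of Nanog itself apart from a free base. The share therefore describes that spelling and not sites of Oct4 and Sox2 in general.
Nanog: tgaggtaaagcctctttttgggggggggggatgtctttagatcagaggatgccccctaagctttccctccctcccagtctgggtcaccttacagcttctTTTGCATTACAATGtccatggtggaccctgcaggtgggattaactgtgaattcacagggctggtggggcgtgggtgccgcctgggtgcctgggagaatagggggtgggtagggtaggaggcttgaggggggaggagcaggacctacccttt

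Of the 16 tested naive genes, 7 rose, 5 fell and 4 did not pass, with a median of 0.20. Their summed level was lower at D9, with 897.8 and 912.7 CPM, against 1483 and 1433 CPM at D4. Dppa5a alone held 258 and 268 CPM of it at D9, against 889.9 and 822 CPM at D4. The fall of that gene was larger than the fall of the sum, so the sum does not show a decline of the other members. Klf4, a Krüppel-like factor that skin and gut epithelium also express, had 29.3 and 32.6 CPM at D9, against 6.74 and 7.06 CPM at D4, a log2 change of 2.16 ± 0.17 (adjusted p = 7.51e-07). Tfcp2l1, a grainyhead family factor that is also known from kidney and other epithelia, had 75.2 and 80.5 CPM at D9, against 24.03 and 26.5 CPM at D4 (1.62 ± 0.08). Tbx3, a T-box factor that is also active in mesoderm and endoderm, had 67.1 and 67.3 CPM at D9, against 13.7 and 15.4 CPM at D4 (2.21 ± 0.18). Both D9 libraries of these 3 lay above both D4 libraries. All 3 remained far below the untreated ES libraries, which averaged 363 CPM of Klf4, 973 CPM of Tfcp2l1 and 271 CPM of Tbx3. Esrrb, an orphan nuclear receptor, had 94.3 and 97.9 CPM at D9, against 103 and 105 CPM at D4, and Zfp42 (Rex1), a zinc finger marker of the naive state, had 130.1 and 121 CPM at D9, against 114 and 122 CPM at D4, and neither passed. Dppa5a, an RNA-binding protein of early embryos and germ cells, had 258 and 268 CPM at D9, against 889.9 and 822 CPM at D4 (-1.70 ± 0.07). Dppa4, a chromatin factor that works with Dppa2, had 35.9 and 36.2 CPM at D9, against 113 and 118 CPM at D4 (-1.68 ± 0.08), so the Dppa members fell while Klf4, Tfcp2l1 and Tbx3 rose.

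The formative and primed epiblast list moved the most clearly downward of the pluripotency lists, with 0 of 13 tested members rising, 12 falling and a median of -2.06. Fgf5, the growth factor that marks the epiblast after implantation, had 17.0 and 18.3 CPM at D9, against 146 and 152 CPM at D4, a log2 change of -3.08 ± 0.09 (adjusted p = 2.03e-12). Pou3f1 (Oct6), a POU factor of the primed epiblast, had 22.5 and 20.4 CPM at D9, against 127 and 150.5 CPM at D4 (-2.69 ± 0.10). Zic2, a zinc finger factor that binds enhancers of primed cells, had 51.96 and 54.9 CPM at D9, against 274 and 289 CPM at D4 (-2.40 ± 0.07). The D4 libraries were several-fold above the D9 libraries for each. Otx2, a homeobox factor that the forebrain keeps, had 158 and 163 CPM at D9, against 325 and 317 CPM at D4 (-1.003 ± 0.11). Lef1, a nuclear effector of Wnt signals, was the member that did not pass, with 24.5 and 25.1 CPM at D9, against 23.3 and 22.5 CPM at D4 (adjusted p = 0.525).

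In the Nodal pathway, the ligand, the coreceptor, the Lefty antagonists and the cofactor Foxh1 fell, while the Smads rose. Of the 17 tested members, 7 rose, 7 fell and 3 did not pass. The median was -0.09, and 0.05 with library size alone. Nodal, the ligand, had 21.2 and 22.8 CPM at D9, against 94.2 and 96.2 CPM at D4, a log2 change of -2.11 ± 0.21 (adjusted p = 1.74e-05). Lefty1, its secreted antagonist and target, had 29.7 and 30.1 CPM at D9, against 746 and 718 CPM at D4 (-4.61 ± 0.64). Lefty2, the second antagonist, had 35.2 and 36.7 CPM at D9, against 106 and 102 CPM at D4 (-1.53 ± 0.24). Foxh1, the forkhead cofactor that brings Smad2 to DNA, had 30.6 and 30.6 CPM at D9, against 134 and 134 CPM at D4 (-2.13 ± 0.10). Both D9 libraries of these 4 lay below both D4 libraries. Cer1 (Cerberus), an antagonist secreted by anterior visceral endoderm and named here after its values were seen, went the other way, with 3.51 and 4.18 CPM at D9, against 0.179 and 0.653 CPM at D4 (3.19 ± 0.40). Smad2, the signal transducer itself, had 109 and 105 CPM at D9, against 70.5 and 71.3 CPM at D4 (0.59 ± 0.07), and its partner Smad4 had 179.5 and 186 CPM at D9, against 152 and 156 CPM at D4 (0.24 ± 0.07). Acvr1b, the type I receptor, had 36.6 and 36.5 CPM at D9, against 34.7 and 34.7 CPM at D4 and did not pass (adjusted p = 0.524).

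Of the 15 tested primitive streak genes, 11 rose, 0 fell and 4 did not pass, with a median of 1.55. T (Brachyury), the T-box factor of the streak and notochord, had 23.3 and 22.02 CPM at D9, against 0.894 and 1.36 CPM at D4, a log2 change of 4.32 ± 0.20 (adjusted p = 3.45e-10). Cdx2, a caudal factor of posterior streak and trophoblast, had 9.51 and 10.3 CPM at D9, against 0.238 and 0.119 CPM at D4 (5.74 ± 0.40). Snai1, the zinc finger repressor of E-cadherin, had 13.5 and 14.1 CPM at D9, against 2.74 and 3.09 CPM at D4 (2.24 ± 0.13). These 3 were several-fold higher in both D9 libraries. Eomes, a T-box factor of streak and definitive endoderm, had 25.2 and 21.8 CPM at D9, against 19.7 and 19.9 CPM at D4 (adjusted p = 0.074), and Lhx1, a homeobox factor of anterior mesendoderm, had 7.17 and 6.78 CPM at D9, against 7.63 and 7.72 CPM at D4. Neither of these passed. Eomes passed upward with library size alone (adjusted p = 0.008596), without the ES libraries (0.01444) and with the 4 libraries alone (0.00965). Its log2 change was 0.24, and 0.35 without the second D9 library. Msgn1, of presomitic mesoderm, was at 0 in all 4 libraries, and Mesp2, of forming somites, had 0.797 and 0.529 CPM at D9, against 1.25 and 1.07 CPM at D4 and did not pass.

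Lateral plate mesoderm factors rose in 12 of 14 tested cases and fell in 1, with a median of 5.15, or 4.89 with members at 0 on 1 day set to their bound. Hand1, a basic helix-loop-helix factor of heart, limb and trophoblast, had 50.4 and 52.3 CPM at D9, against 0.537 and 0.237 CPM at D4, a log2 change of 7.03 ± 0.20 (adjusted p = 1.75e-12). Twist1, a helix-loop-helix factor of mesenchyme, had 23.6 and 23.1 CPM at D9, against 2.74 and 2.37 CPM at D4 (3.19 ± 0.13). Prrx1, a homeobox factor of limb and craniofacial mesenchyme, had 11.5 and 13.3 CPM at D9, against 0.358 and 0.297 CPM at D4 (5.22 ± 0.24). In each of these the D4 libraries were near 0 or at a few CPM and the D9 libraries well above them. Isl1, a LIM factor of second heart field and motor neurons, had 9.03 and 10.1 CPM at D9, against 0.179 and 0.119 CPM at D4 (5.94 ± 0.32). Pitx1, a hindlimb and pituitary factor, had 21.2 and 19.4 CPM at D9, against 0.298 and 0.475 CPM at D4 (5.69 ± 0.18). Tbx4, a hindlimb and lung T-box factor, went the other way, with 2.07 and 1.91 CPM at D9, against 3.76 and 5.40 CPM at D4 (-1.20 ± 0.23). Tbx5, of forelimb and heart, had 0.425 and 0.0529 CPM at D9, against 0.179 and 0.356 CPM at D4 and did not pass.

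In the paraxial and intermediate mesoderm list, 9 of 14 tested members rose and 2 fell, with a median of 3.98. Foxc1, a forkhead factor of somites and vessels, had 18.01 and 16.4 CPM at D9, against 0.358 and 0.415 CPM at D4 (5.45 ± 0.28). Eya1, a phosphatase and coactivator of kidney and ear, had 15.1 and 16.8 CPM at D9, against 0.656 and 1.01 CPM at D4 (4.25 ± 0.34). Both were about 1 CPM or less in the D4 libraries. Pax2, of intermediate mesoderm and the midbrain to hindbrain boundary, had 5.47 and 4.87 CPM at D9, against 0.119 and 0.178 CPM at D4 (5.06 ± 0.33). Wt1, a zinc finger factor of kidney, gonad and mesothelium, had 2.98 and 2.12 CPM at D9, against 11.2 and 14.1 CPM at D4 (-2.31 ± 0.23) and so was lower in both D9 libraries. Meox1 and Meox2, homeobox factors of the somites, had under 0.4 CPM in all 4 libraries and did not pass.

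Endoderm genes rose broadly, both the transcription factors and the secreted products of the yolk sac. Of the 16 tested factors, 14 rose, 0 fell and 2 did not pass, with a median of 2.28. Foxa1, a pioneer factor of endoderm, had 24.6 and 27.6 CPM at D9, against 1.31 and 0.772 CPM at D4, a log2 change of 4.64 ± 0.16 (adjusted p = 1.10e-11). Sox17, an HMG box factor of endoderm and arterial endothelium, had 31.3 and 30.3 CPM at D9, against 1.79 and 2.25 CPM at D4 (3.92 ± 0.15). Gata4, a zinc finger factor of primitive endoderm and heart, had 61.2 and 65.1 CPM at D9, against 13.6 and 13.4 CPM at D4 (2.23 ± 0.15). All were higher in both D9 libraries. Hnf4a, a nuclear receptor of visceral endoderm and liver, had 48.1 and 48.4 CPM at D9, against 7.75 and 9.20 CPM at D4 (2.51 ± 0.11). Prox1, of liver and lymphatic endothelium, had 18.3 and 16.2 CPM at D9, against 16.4 and 17.4 CPM at D4 and did not pass (adjusted p = 0.86).

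Of 23 tested plasma protein genes, 19 rose, 1 fell and 3 did not pass, with a median of 3.68, or 3.52 with members at 0 on 1 day set to their bound. Afp, alpha-fetoprotein, had 284 and 295 CPM at D9, against 3.46 and 4.33 CPM at D4, a log2 change of 6.21 ± 0.15 (adjusted p = 5.95e-12). Rbp4, the carrier of retinol in plasma, had 185 and 191 CPM at D9, against 7.04 and 4.87 CPM at D4 (4.98 ± 0.12). Vtn, the plasma adhesion protein vitronectin, had 30.97 and 29.4 CPM at D9, against 0 and 0.297 CPM at D4 (7.60 ± 0.26). Both D9 libraries stood far above the D4 libraries in each. Apob, the structural protein of lipoproteins, had 428 and 426 CPM at D9, against 55.9 and 53.7 CPM at D4 (2.96 ± 0.09), and Mttp, the transfer protein that loads it with lipid, had 74.9 and 74.96 CPM at D9, against 28.98 and 27.4 CPM at D4 (1.41 ± 0.07). Trf, transferrin, had 59.5 and 61.6 CPM at D9, against 4.29 and 3.68 CPM at D4 (3.92 ± 0.43). Apoe, an apolipoprotein of many tissues, had 879.7 and 877 CPM at D9, against 875 and 913 CPM at D4 and did not pass, while Apoc1, its neighbour in the genome, fell with 14.1 and 15.8 CPM at D9, against 29.04 and 27.01 CPM at D4 (-0.91 ± 0.12). Alb, the albumin of mature hepatocytes, had 0 and 0.159 CPM at D9, against 0 and 0 CPM at D4, and Apoh was at 0 in all 4 libraries.

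Uptake genes of the visceral endoderm rose in 9 of 12 tested cases and fell in 2, with a median of 1.16. Cubn, the receptor cubilin, had 254 and 259 CPM at D9, against 121 and 135 CPM at D4, a log2 change of 0.998 ± 0.07 (adjusted p = 2.49e-08). Amn, amnionless, its membrane anchor, had 41.4 and 44.5 CPM at D9, against 8.17 and 8.61 CPM at D4 (2.36 ± 0.11). Dab2, the adaptor that links such receptors to clathrin, had 336 and 337 CPM at D9, against 82.05 and 81.02 CPM at D4 (2.04 ± 0.06). These 3 moved upward together, while Lrp2, megalin, the other large receptor of this complex, had 209.8 and 211 CPM at D9, against 569 and 573 CPM at D4 (-1.44 ± 0.13) and was lower in both D9 libraries. Cldn6, a tight junction claudin of embryonic epithelium, had 256 and 269 CPM at D9, against 354 and 368 CPM at D4 (-0.46 ± 0.06).

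Basement membrane and parietal endoderm genes rose in 11 of 13 tested cases and fell in 2, with a median of 2.82. Col4a1, a collagen IV chain, had 1432 and 1453 CPM at D9, against 179 and 205 CPM at D4, a log2 change of 2.91 ± 0.07 (adjusted p = 4.72e-13). Col4a2, its partner chain from the same bidirectional promoter, had 870.0 and 876 CPM at D9, against 99.9 and 106 CPM at D4 (3.08 ± 0.10). Lama1, the laminin chain of the earliest basement membranes, had 298 and 285 CPM at D9, against 41.3 and 40.95 CPM at D4 (2.82 ± 0.06). Lamb1 and Lamc1, the other 2 chains of that laminin, changed less, with 0.75 ± 0.05 and 0.71 ± 0.08. Per gene length, Col4a1 had 214 and 217 FPKM at D9, against 24.1 and 27.9 FPKM at D4, and Sparc, a collagen-binding matrix protein, had 394 and 403 FPKM at D9, against 108 and 111 FPKM at D4. Nid2, a nidogen that links laminin to collagen IV, had 264 and 259.5 CPM at D9, against 353 and 376 CPM at D4 (-0.48 ± 0.05), against most of its list.

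Most tested genes of neural progenitors and of neurons rose. Of the 17 tested progenitor genes, 14 rose, 2 fell and 1 did not pass, with a median of 4.65. Sox1, an HMG box factor of the neural plate, had 33.1 and 33.99 CPM at D9, against 1.91 and 1.54 CPM at D4, a log2 change of 4.28 ± 0.13 (adjusted p = 3.18e-12). Sox21, another factor of that family, had 34.4 and 32.6 CPM at D9, against 1.37 and 0.712 CPM at D4 (4.997 ± 0.33). Pou3f2 (Brn2), a POU factor of neural progenitors, had 17.96 and 18.5 CPM at D9, against 0.298 and 0.475 CPM at D4 (5.53 ± 0.18). Zic1, a zinc finger factor of dorsal neural tube, had 12.96 and 14.7 CPM at D9, against 0.477 and 0.475 CPM at D4 (4.84 ± 0.19). The D4 libraries of these genes were at 2 CPM or less and no D9 library overlapped them. Nes, the intermediate filament nestin, which other progenitors also carry, had 139 and 129 CPM at D9, against 200.5 and 228 CPM at D4 (-0.68 ± 0.07), and Sox3, shared with the epiblast, had 15.8 and 18.6 CPM at D9, against 40.7 and 43.1 CPM at D4 (-1.29 ± 0.11). These were the members that fell, and the summed level of the list was 680.9 and 667.6 CPM at D9, against 568.2 and 610.5 CPM at D4.

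Most tested regional factors of the brain rose. In the forebrain list 13 of 14 tested members rose and 1, Otx2, fell, with a median of 4.39. Otx2 was also the most abundant member by FPKM on both days, and the summed level of that list was lower at D9, with 237.8 and 246.3 CPM, against 329.5 and 322.9 CPM at D4. Six3, of the anterior neural plate and eye field, had 14.3 and 14.1 CPM at D9, against 0.298 and 0.356 CPM at D4 (5.41 ± 0.23). Otx1, of forebrain and midbrain, had 19.8 and 21.9 CPM at D9, against 0.894 and 1.19 CPM at D4 (4.32 ± 0.22). In the midbrain and hindbrain list 11 of 14 rose and 1 fell, with a median of 2.75. En1, engrailed, had 15.9 and 15.7 CPM at D9, against 0.417 and 0.475 CPM at D4 (5.13 ± 0.31), and Pax5, a paired box factor of the same region and of B cells, had 6.06 and 6.62 CPM at D9, against 0.179 and 0.0593 CPM at D4 (5.66 ± 0.39). En2, the second engrailed gene, had 1.86 and 2.06 CPM at D9, against 2.03 and 1.90 CPM at D4 and did not pass. Fgf17, a boundary growth factor, had 2.55 and 2.86 CPM at D9, against 6.20 and 4.99 CPM at D4 (-1.05 ± 0.21), the fall of the list.

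Of 18 tested genes of floor plate and dorsoventral patterning, 17 rose and 0 fell, with a median of 3.64. Besides Shh and Dbx1 above, Nkx6-1, a homeobox factor of ventral neural tube and pancreas, had 33.8 and 36.0 CPM at D9, against 0.119 and 0.0593 CPM at D4, a ratio of 391-fold (95% counting interval 134 to 1900.1). Foxa2, a forkhead factor of floor plate and endoderm, had 47.4 and 47.4 CPM at D9, against 3.88 and 3.03 CPM at D4 (3.78 ± 0.11). Ntn1, the axon attractant netrin-1, had 61.6 and 59.8 CPM at D9, against 3.28 and 4.04 CPM at D4 (4.05 ± 0.23). Irx3, of intermediate neural tube, had 42.2 and 44.4 CPM at D9, against 2.15 and 2.55 CPM at D4 (4.20 ± 0.23). Lmx1b, a LIM factor of dopaminergic progenitors and limb, had 27.2 and 27.6 CPM at D9, against 6.68 and 6.83 CPM at D4 (2.02 ± 0.12). Every one of these was above its D4 libraries in both D9 libraries. Dbx2, the relative of Dbx1, had 0.159 and 0.212 CPM at D9, against 0.298 and 0.475 CPM at D4 and did not pass.

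Of the 24 tested neuron genes, 16 rose, 3 fell and 5 did not pass, with a median of 1.40. Tubb3, neuronal tubulin, had 47.8 and 47.3 CPM at D9, against 4.95 and 5.40 CPM at D4, a log2 change of 3.20 ± 0.19 (adjusted p = 5.92e-08). Gap43, a protein of growing axons, had 30.2 and 30.2 CPM at D9, against 4.47 and 3.38 CPM at D4 (2.94 ± 0.22). Nefm, a neurofilament subunit, had 25.9 and 25.1 CPM at D9, against 4.95 and 5.16 CPM at D4 (2.33 ± 0.33). Map2, of dendrites, had 20.03 and 18.5 CPM at D9, against 7.63 and 8.90 CPM at D4 (1.22 ± 0.10). All 4 were higher in both D9 libraries. Ina, the neurofilament relative internexin, had 9.14 and 8.15 CPM at D9, against 33.7 and 42.8 CPM at D4 (-2.14 ± 0.13), and Rbfox3 (NeuN), a splicing factor of mature neurons, had 1.33 and 1.64 CPM at D9, against 3.22 and 3.15 CPM at D4 (-1.10 ± 0.20), so these fell. Stmn3 and Elavl3, of growth cones and of RNA binding in neurons, did not pass, with -0.15 ± 0.19 and -0.27 ± 0.13, although Elavl3 passed downward without the first D4 library (adjusted p = 0.005708).

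Neural crest genes rose in 17 of 19 tested cases and fell in 1, with a median of 3.39. Sox9, an HMG box factor of crest and cartilage, had 18.7 and 16.8 CPM at D9, against 1.37 and 1.07 CPM at D4 (3.86 ± 0.25). Tfap2a, of crest and surface ectoderm, had 17.0 and 16.7 CPM at D9, against 1.67 and 2.20 CPM at D4 (3.12 ± 0.22). Msx2, a homeobox target of BMP signals, had 23.8 and 26.1 CPM at D9, against 0.656 and 0.594 CPM at D4 (5.31 ± 0.28). Their D9 libraries lay far above their D4 libraries. Foxd3, shared by crest and pluripotent cells, had 6.48 and 7.36 CPM at D9, against 24.8 and 29.3 CPM at D4 (-1.96 ± 0.22), and Sox10, of migrating crest and glia, had 0.903 and 0.688 CPM at D9, against 1.25 and 1.13 CPM at D4 and did not pass (adjusted p = 0.164).

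Epithelial adhesion genes fell while mesenchymal genes rose. Of the 20 tested epithelial genes, 7 rose, 11 fell and 2 did not pass, with a median of -0.47. Cdh1, E-cadherin, had 352 and 345 CPM at D9, against 1174 and 1182 CPM at D4, a log2 change of -1.76 ± 0.07 (adjusted p = 3.07e-11). Epcam, an adhesion protein of epithelia and ES cells, had 142 and 138 CPM at D9, against 466 and 446 CPM at D4 (-1.70 ± 0.10). Cldn4, a tight junction claudin, had 92.8 and 94.1 CPM at D9, against 289.8 and 303 CPM at D4 (-1.66 ± 0.06). Esrp1, a splicing regulator that keeps epithelial isoforms, had 57.1 and 58.98 CPM at D9, against 141 and 133 CPM at D4 (-1.24 ± 0.09). Each was lower in both D9 libraries. Krt8, a keratin of simple epithelium, had 730.1 and 725 CPM at D9, against 369.8 and 369.8 CPM at D4 (0.98 ± 0.09), and Krt19, another of that tissue, had 117 and 117 CPM at D9, against 36.1 and 36.5 CPM at D4 (1.69 ± 0.09), so these rose. Krt18, the partner of Krt8, had 684 and 713 CPM at D9, against 858 and 809 CPM at D4 and did not pass, but it passed downward without the ES libraries (adjusted p = 1.432e-07) and with the 4 libraries alone (7.041e-06). Trp63, the p53 relative of stratified epithelium, had 6.16 and 7.73 CPM at D9, against 0.0596 and 0.119 CPM at D4, a ratio of 77.9-fold (95% counting interval 26.3 to 380.0).

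All 16 of 16 tested genes of mesenchyme and of the epithelial to mesenchymal transition rose, with a median of 3.45. Cdh2, N-cadherin, had 136 and 134 CPM at D9, against 4.41 and 4.99 CPM at D4, a log2 change of 4.84 ± 0.15 (adjusted p = 3.70e-11). Vim, vimentin, the intermediate filament of mesenchyme, had 606 and 628 CPM at D9, against 19.3 and 17.4 CPM at D4 (5.07 ± 0.30). Zeb1, a repressor of E-cadherin, had 42.1 and 40.3 CPM at D9, against 1.73 and 0.890 CPM at D4 (4.97 ± 0.18). Cdh6, K-cadherin, had 71.3 and 68.7 CPM at D9, against 1.19 and 0.890 CPM at D4 (6.06 ± 0.12), and Tgfb2, a ligand of the TGF-beta family, had 78.04 and 79.2 CPM at D9, against 7.51 and 4.45 CPM at D4 (3.72 ± 0.15). No library of 1 day overlapped one of the other in these genes. Per gene length, Cdh1 had 78.5 and 77.2 FPKM at D9, against 236 and 240.1 FPKM at D4, while Cdh2 had 27.7 and 27.2 FPKM at D9, against 0.700 and 0.780 FPKM at D4, so E-cadherin mRNA was above N-cadherin mRNA on both days and the gap was narrower at D9.

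Fibroblast matrix genes rose in 21 of 22 tested cases and fell in 1, with a median of 3.36. Col1a2, a chain of collagen I, had 172 and 183 CPM at D9, against 6.38 and 4.81 CPM at D4, a log2 change of 4.98 ± 0.13 (adjusted p = 4.24e-12). Col2a1, the collagen of cartilage and notochord, had 317 and 319 CPM at D9, against 26.8 and 27.1 CPM at D4 (3.56 ± 0.09). Col5a1, which starts collagen fibrils, had 174 and 166 CPM at D9, against 12.2 and 11.8 CPM at D4 (3.83 ± 0.12). Vcan, the proteoglycan versican, had 227 and 230.1 CPM at D9, against 8.05 and 8.72 CPM at D4 (4.77 ± 0.31). All D9 values were well above the D4 values. Eln, elastin, had 1.22 and 0.794 CPM at D9, against 2.80 and 3.32 CPM at D4 (-1.60 ± 0.24) and was the member that fell. Dcn, decorin, had 2.55 and 2.54 CPM at D9, against 1.55 and 1.48 CPM at D4 (0.74 ± 0.16), and this call was lost in the fit of all 22 libraries (adjusted p = 0.2698).

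Among endothelial and blood progenitor genes, 13 of 20 tested members rose, 4 fell and 3 did not pass. The median was 2.81, or 2.41 with members at 0 on 1 day set to their bound. Kdr, the main VEGF receptor, had 19.4 and 19.01 CPM at D9, against 0.238 and 0.0593 CPM at D4, a log2 change of 6.95 ± 0.25 (adjusted p = 2.34e-11). Cdh5, VE-cadherin, had 20.8 and 23.5 CPM at D9, against 0.179 and 0.0593 CPM at D4 (7.46 ± 0.24). Gata2, of blood progenitors, endothelium and trophoblast, had 19.6 and 19.6 CPM at D9, against 1.43 and 2.02 CPM at D4 (3.50 ± 0.39). Runx1, required for definitive blood cells, had 16.3 and 14.3 CPM at D9, against 2.21 and 3.15 CPM at D4 (2.51 ± 0.17). These stood under 4 CPM in both D4 libraries and above 14 CPM in both D9 libraries. Eng, the TGF-beta coreceptor endoglin, which ES cells also express, had 10.3 and 10.2 CPM at D9, against 32.4 and 32.5 CPM at D4 (-1.66 ± 0.12), and Pecam1, shared by endothelium and ES cells, had 30.1 and 32.9 CPM at D9, against 28.4 and 28.3 CPM at D4 without passing. Etv2, which starts the endothelial programme, had 1.27 and 1.27 CPM at D9, against 1.67 and 1.19 CPM at D4 and did not pass.

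Erythroid genes were scarce on both days, their summed level being 10.79 and 10.96 CPM at D9, against 3.995 and 4.748 CPM at D4. Of 13 tested, 5 rose, all of them globins, and 8 did not pass. That count was 3 without the second D4 library or without the first D9 library. Hbb-bh1, an embryonic beta globin, had 2.98 and 2.44 CPM at D9, against 0.0596 and 0 CPM at D4, a ratio of 90.9-fold (95% counting interval 15.96 to 3626), and Hba-x, the embryonic zeta globin, had 1.97 and 2.44 CPM at D9, against 0 and 0.0593 CPM at D4, a ratio of 73.99-fold (95% counting interval 12.9 to 2957). Gata1, the master factor of the erythroid lineage, had 0.691 and 0.741 CPM at D9, against 0.477 and 0.534 CPM at D4 and did not pass. Near-identical globin copies may share reads, so the adult alpha globins are uncertain.

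Heart genes rose in 13 of 20 tested cases and fell in 1, with a median of 0.98. Myh7, the slow myosin heavy chain, had 49.6 and 53.8 CPM at D9, against 3.82 and 3.21 CPM at D4, a log2 change of 3.88 ± 0.10 (adjusted p = 1.34e-12). Tbx20, a T-box factor of heart, had 11.3 and 11.2 CPM at D9, against 0.477 and 0.178 CPM at D4 (5.07 ± 0.27). Actc1, cardiac actin, had 35.8 and 42.8 CPM at D9, against 18.2 and 16.98 CPM at D4 (1.16 ± 0.11). All were higher in both D9 libraries. Myh6, the fast myosin chain, changed less (0.81 ± 0.11), and Myl7, the atrial light chain, had 2.02 and 1.43 CPM at D9, against 1.49 and 1.25 CPM at D4 and did not pass. Ryr2, the calcium release channel, had 5.68 and 5.82 CPM at D9, against 5.43 and 5.04 CPM at D4 and did not pass.

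In smooth muscle, 6 of 13 tested genes rose, 3 fell and 4 did not pass, with a median of 0.03. Acta2, smooth muscle actin, had 516 and 512 CPM at D9, against 115 and 102 CPM at D4, a log2 change of 2.25 ± 0.08 (adjusted p = 4.85e-11). Mylk, myosin light chain kinase, had 19.6 and 18.9 CPM at D9, against 0.596 and 0.712 CPM at D4 (4.86 ± 0.16). Cnn1, calponin, had 17.7 and 16.5 CPM at D9, against 37.8 and 39.6 CPM at D4 (-1.18 ± 0.12), and Myl9, a regulatory light chain, had 37.4 and 40.1 CPM at D9, against 69.6 and 65.3 CPM at D4 (-0.80 ± 0.09). So contractile genes moved in both directions, with no overlap of the days in these 4. Tpm1, tropomyosin, had 998 and 973 CPM at D9, against 995 and 932 CPM at D4 and Des, desmin, 47.8 and 48.7 CPM at D9, against 49.7 and 55.3 CPM at D4, and neither passed.

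Hox genes, the homeobox factors that order the trunk, stayed low. Of the 34 tested of 39 members, 23 rose, 0 fell and 11 did not pass, with a median of 2.09, or 1.90 with members at 0 on 1 day set to their bound, and the summed level was 36.1 and 35.4 CPM at D9, against 10.9 and 11.3 CPM at D4. Hoxb2, a hindbrain member, had 2.34 and 1.80 CPM at D9, against 0.119 and 0.119 CPM at D4 (4.05 ± 0.43), and Hoxb4, at the border of hindbrain and spinal cord, had 2.92 and 2.59 CPM at D9, against 0.238 and 0.119 CPM at D4 (3.90 ± 0.51). Both were higher in both D9 libraries. With limma on filtered log2(FPKM + 1), 16 members were tested and 12 rose.

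The signalling lists are drawn gene by gene in the plot of log2 changes. Wnt ligands rose in 14 of 19 tested cases and fell in 1, with a median of 2.14. Wnt5a, a ligand of the planar polarity branch, had 24.2 and 23.98 CPM at D9, against 1.19 and 0.831 CPM at D4, a log2 change of 4.57 ± 0.14 (adjusted p = 5.62e-12). Wnt7b, a ligand of neural and lung epithelium, had 25.1 and 24.1 CPM at D9, against 5.49 and 5.70 CPM at D4 (2.14 ± 0.21). Wnt6, of surface ectoderm and extraembryonic endoderm, had 7.38 and 6.04 CPM at D9, against 1.37 and 0.9497 CPM at D4 (2.52 ± 0.22). Their D9 libraries were higher throughout. Wnt8a, an epiblast and streak ligand, had 0.903 and 0.529 CPM at D9, against 3.16 and 2.85 CPM at D4 (-2.06 ± 0.35), the fall of the list. Wnt4, of kidney and gonad, and Wnt9a, of limb and liver, did not pass (-0.02 ± 0.14 and 0.11 ± 0.10).

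Secreted Wnt regulators rose in 11 of 15 tested cases and fell in 3, with a median of 1.98. Dkk1, an antagonist that blocks the Lrp5 and Lrp6 coreceptors, had 60.3 and 64.5 CPM at D9, against 2.33 and 1.84 CPM at D4 (4.90 ± 0.15). Sfrp1, a soluble Frizzled-related protein, had 71.9 and 72.4 CPM at D9, against 26.8 and 27.4 CPM at D4 (1.41 ± 0.09). Rspo3, an R-spondin that amplifies Wnt signals, had 7.60 and 6.88 CPM at D9, against 0.716 and 0.534 CPM at D4 (3.52 ± 0.26). These antagonists and this agonist were all higher in both D9 libraries. Rspo4, a related agonist, had 0.425 and 0.265 CPM at D9, against 1.61 and 2.25 CPM at D4 (-2.46 ± 0.46), and Sfrp4 had 0.903 and 0.529 CPM at D9, against 2.50 and 1.72 CPM at D4 (-1.55 ± 0.32), so both fell.

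Of 10 tested feedback targets, 6 rose, 2 fell and 2 did not pass, with a median of 1.68. Axin2, a scaffold of the beta-catenin destruction complex, had 52.2 and 52.04 CPM at D9, against 16.6 and 16.98 CPM at D4, a log2 change of 1.63 ± 0.19 (adjusted p = 3.02e-05). Apcdd1, a membrane inhibitor of Wnt, had 96.9 and 94.5 CPM at D9, against 3.82 and 3.21 CPM at D4 (4.77 ± 0.10). Nkd1, which binds Dishevelled, had 50.4 and 54.6 CPM at D9, against 7.99 and 7.60 CPM at D4 (2.75 ± 0.09). Sp5, a zinc finger factor induced by Wnt, had 26.2 and 26.9 CPM at D9, against 0.417 and 0.594 CPM at D4 (5.70 ± 0.23). All 4 were higher in both D9 libraries, while Tcf7, a nuclear effector, had 76.1 and 79.2 CPM at D9, against 189.6 and 202 CPM at D4 (-1.33 ± 0.06).

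The window of Sp5 (RefSeq, GRCm38.p6, chr2:70474673-70474922, + strand, upstream of the start site) is shown as that of the tested feedback target with the largest fitted rise. The capitals mark CTTTGATC, the core bound by Tcf and Lef proteins, found 104 bases before the start. It was present in 263 of 32817 windows (0.801%), searched on both strands.
Sp5: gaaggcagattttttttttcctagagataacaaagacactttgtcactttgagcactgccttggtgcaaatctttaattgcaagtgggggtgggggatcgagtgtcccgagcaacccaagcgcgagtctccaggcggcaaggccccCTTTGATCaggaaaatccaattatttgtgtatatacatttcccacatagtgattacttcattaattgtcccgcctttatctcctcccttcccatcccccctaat

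**Figure D3:**
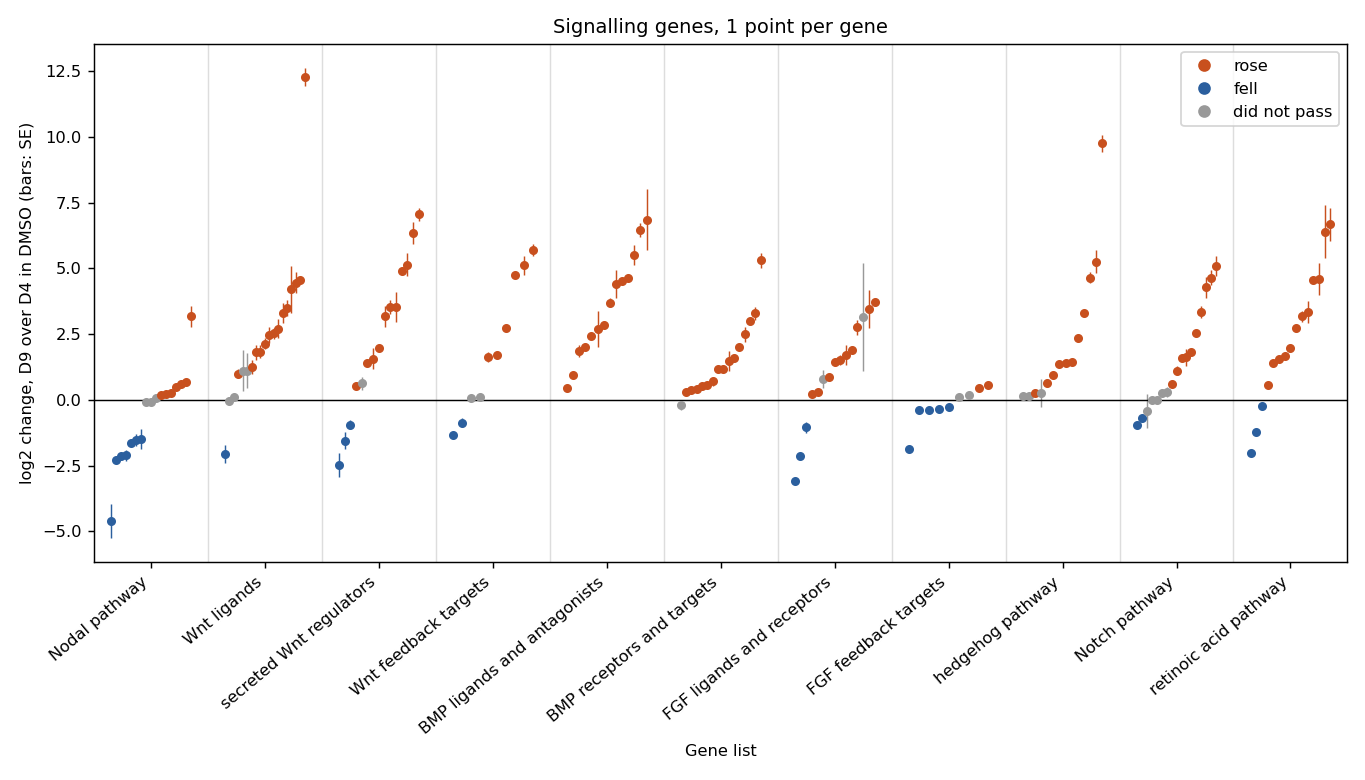
Log2 change of each tested signalling gene, D9 over D4 in DMSO, with its SE as a bar, 1 point per gene and 1 column per list, sorted by size within a column. Orange genes rose, blue fell and grey did not pass; all 14 tested BMP ligands and antagonists lie above 0, and 7 genes of the Nodal pathway fell while 7 rose.

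All 14 of 14 tested BMP ligands and antagonists rose. The median was 3.27, or 2.98 with members at 0 on 1 day set to their bound. Bmp4, the ligand of ventral mesoderm and surface ectoderm, had 41.2 and 38.5 CPM at D9, against 5.31 and 5.76 CPM at D4, a log2 change of 2.85 ± 0.15 (adjusted p = 1.24e-09). Bmp5, a relative of Bmp7, had 15.7 and 16.7 CPM at D9, against 0.238 and 0.119 CPM at D4 (6.45 ± 0.27). Bmp2, a ligand of visceral endoderm and heart, had 31.3 and 31.3 CPM at D9, against 1.55 and 1.19 CPM at D4 (4.51 ± 0.14). Nog, the antagonist noggin, had 25.4 and 21.02 CPM at D9, against 1.49 and 2.08 CPM at D4 (3.70 ± 0.18), and Fst, follistatin, which binds activin, had 34.8 and 34.2 CPM at D9, against 1.55 and 1.19 CPM at D4 (4.65 ± 0.13). Ligands and antagonists were thus higher in the same D9 libraries. Of the receptors and targets, 15 of 16 rose and 0 fell, with a median of 1.16. The targets Id2 and Id1, inhibitors of helix-loop-helix factors, had changes of 2.98 ± 0.13 and 1.16 ± 0.08, above those of the receptors Bmpr1a (0.43 ± 0.06) and Bmpr2 (0.55 ± 0.07). Smad7, an inhibitory Smad, had 41.9 and 41.6 CPM at D9, against 48.0 and 48.3 CPM at D4 and did not pass, but it passed downward without the ES libraries (adjusted p = 0.004009) and with the 4 libraries alone (0.003966).

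Of 15 tested FGF ligands and receptors, 10 rose, 3 fell and 2 did not pass. The median was 1.44, or 0.87 with members at 0 on 1 day set to their bound. Fgf4, the autocrine ligand of ES cells, had 42.3 and 41.6 CPM at D9, against 189 and 174 CPM at D4 (-2.11 ± 0.10). Fgf10, a mesenchymal ligand of limb and lung, had 16.1 and 14.7 CPM at D9, against 4.11 and 4.09 CPM at D4 (1.90 ± 0.14). Fgfr3, a receptor of neural tube and cartilage, had 24.9 and 27.0 CPM at D9, against 2.33 and 1.60 CPM at D4 (3.72 ± 0.16), and Fgfr2, the main receptor of epithelia, had 69.3 and 68.2 CPM at D9, against 37.9 and 37.5 CPM at D4 (0.87 ± 0.13). Epiblast ligands were lower and these later ligands and receptors higher in both D9 libraries. Feedback targets fell in 5 of 9 tested cases and rose in 2, but with library size alone 2 fell and 4 rose. Etv5, an ETS factor, had 134 and 135 CPM at D9, against 485 and 491 CPM at D4 (-1.86 ± 0.09), and Dusp6, an ERK phosphatase, had 93.5 and 88.99 CPM at D9, against 86.6 and 84.3 CPM at D4 and did not pass.

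Hedgehog genes rose in 11 of 14 tested cases and fell in 0, with a median of 1.39. Ihh, the ligand of visceral endoderm and cartilage, had 20.4 and 17.1 CPM at D9, against 0.477 and 1.01 CPM at D4, a log2 change of 4.64 ± 0.21 (adjusted p = 2.30e-10). Gli1, a transcription factor and direct target, had 42.5 and 40.2 CPM at D9, against 4.77 and 3.68 CPM at D4 (3.29 ± 0.12). Ptch1, the receptor and also a target, had 285 and 279 CPM at D9, against 106 and 111 CPM at D4 (1.37 ± 0.06). Both ligands and both targets were higher in both D9 libraries. Gli3, which acts mainly as a repressor, had 64.1 and 65.1 CPM at D9, against 32.4 and 35.5 CPM at D4 (0.93 ± 0.11). Smo, the transducer, and Sufu, the inhibitor of Gli proteins, did not pass, with 0.16 ± 0.10 and 0.13 ± 0.08. Both passed upward with library size alone (adjusted p = 0.01583 and 0.008102). They also did so on the TMM scale without the ES libraries (0.001827 and 0.03967) and with the 4 libraries alone (0.001813 and 0.03144).

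In the Notch pathway, 10 of 17 tested genes rose, 2 fell and 5 did not pass, with a median of 1.12. Jag1, a ligand, had 52.2 and 50.1 CPM at D9, against 14.4 and 14.9 CPM at D4, a log2 change of 1.80 ± 0.11 (adjusted p = 6.59e-09). Dll1, a ligand of neural progenitors and somites, had 17.3 and 18.5 CPM at D9, against 6.38 and 5.52 CPM at D4 (1.59 ± 0.12). Lfng, a glycosyltransferase that modifies Notch, had 25.4 and 27.8 CPM at D9, against 5.37 and 3.86 CPM at D4 (2.53 ± 0.15). Hey1, a target, had 16.7 and 18.6 CPM at D9, against 1.55 and 1.96 CPM at D4 (3.33 ± 0.23). These were higher in both D9 libraries, while Jag2, another ligand, had 38.7 and 37.1 CPM at D9, against 71.97 and 73.2 CPM at D4 (-0.94 ± 0.09) and Notch3, a receptor of smooth muscle, 193 and 196 CPM at D9, against 299 and 336 CPM at D4 (-0.71 ± 0.14). Notch1 had 75.6 and 76.5 CPM at D9, against 74.3 and 76.4 CPM at D4, and its target Hes1 had 55.5 and 52.9 CPM at D9, against 54.02 and 55.5 CPM at D4, and neither passed.

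Retinoic acid genes rose in 12 of 15 tested cases and fell in 3, with a median of 1.97. Crabp1, a carrier protein of the cytoplasm, had 110.3 and 112 CPM at D9, against 4.89 and 4.45 CPM at D4, a log2 change of 4.57 ± 0.15 (adjusted p = 2.31e-11). Rdh10, which oxidises retinol, had 27.8 and 28.7 CPM at D9, against 9.18 and 8.67 CPM at D4 (1.66 ± 0.09). Cyp26a1, which degrades retinoic acid and is induced by it, had 54.3 and 54.5 CPM at D9, against 13.8 and 14.1 CPM at D4 (1.97 ± 0.09). Enzymes of synthesis and of breakdown were higher in the same D9 libraries. Dhrs3, which reduces retinal back to retinol, had 6.59 and 5.45 CPM at D9, against 23.4 and 24.8 CPM at D4 (-2.001 ± 0.14), and Rarg, a receptor of epiblast and skin, had 45.2 and 48.8 CPM at D9, against 107 and 111 CPM at D4 (-1.21 ± 0.09).

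The window of Cyp26a1 (RefSeq, GRCm38.p6, chr19:37697558-37697807, + strand, upstream of the start site) is shown because this breakdown enzyme rose with the carriers. The capitals mark the direct repeat with 5 bases between its parts that retinoic acid receptors bind, matched here on the opposite strand. It was found 32 bases before the start and in 7 of 32817 windows (0.0213%), searched on both strands.
Cyp26a1: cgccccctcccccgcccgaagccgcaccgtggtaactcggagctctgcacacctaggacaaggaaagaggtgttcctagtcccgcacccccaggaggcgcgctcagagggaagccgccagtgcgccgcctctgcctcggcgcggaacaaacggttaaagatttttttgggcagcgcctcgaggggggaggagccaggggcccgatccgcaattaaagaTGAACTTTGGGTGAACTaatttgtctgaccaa

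Imprinted genes of both parental classes rose. Of 15 tested genes expressed from the paternal allele, 11 rose and 2 fell, with a median of 2.14. Igf2, insulin-like growth factor 2, had 2063 and 2012 CPM at D9, against 27.3 and 26.1 CPM at D4, a log2 change of 6.25 ± 0.13 (adjusted p = 1.07e-12). Plagl1, a zinc finger factor that restrains growth, had 149.9 and 149 CPM at D9, against 2.56 and 3.09 CPM at D4 (5.72 ± 0.28). Mest, a hydrolase-like protein of mesoderm, had 1227 and 1263 CPM at D9, against 199.7 and 199 CPM at D4 (2.64 ± 0.07). Snrpn, a splicing protein, had 199.7 and 198 CPM at D9, against 481 and 508 CPM at D4 (-1.31 ± 0.05) and was lower in both D9 libraries. Rtl1, a gene derived from a retrotransposon, was the other that fell, with 1.38 and 2.49 CPM at D9, against 4.29 and 4.21 CPM at D4 (-1.13 ± 0.25). Per gene length, Igf2 had 544 and 557 FPKM at D9, against 6.31 and 6.19 FPKM at D4, and Peg10, likewise derived from a retrotransposon, had 291 and 290.4 FPKM at D9, against 30.6 and 31.7 FPKM at D4. Of 10 tested genes of the maternal allele, 6 rose and 1 fell. Cdkn1c (p57), a cyclin-dependent kinase inhibitor, had 87.9 and 85.9 CPM at D9, against 4.47 and 5.40 CPM at D4 (4.14 ± 0.10). Grb10, an adaptor that dampens insulin signals, had 99.1 and 101 CPM at D9, against 10.4 and 9.20 CPM at D4 (3.35 ± 0.08). Slc22a3, an organic cation transporter, had 0.478 and 0.318 CPM at D9, against 19.6 and 17.2 CPM at D4 (-5.51 ± 0.27), the fall of the list. H19, Meg3, Rian and Mirg were not analysed here.

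DNA methylation genes divided. Of 11 tested, 3 rose and 5 fell, with a median of -0.05, or 0.09 with library size alone. Dnmt3b, a de novo methyltransferase, had 159 and 160.4 CPM at D9, against 935 and 914 CPM at D4, a log2 change of -2.53 ± 0.24 (adjusted p = 3.87e-05). Dnmt3a, the other de novo enzyme, had 155 and 149 CPM at D9, against 364 and 373 CPM at D4 (-1.28 ± 0.06). Dnmt1, the maintenance enzyme, had 342 and 326 CPM at D9, against 314 and 313 CPM at D4 and did not pass. Tet2 and Tet3, which oxidise methylated cytosine, rose (1.56 ± 0.13 and 1.08 ± 0.07), and Tet1, the form of ES cells, fell (-0.48 ± 0.09). Enzymes that write new methylation were thus lower in both D9 libraries, and 2 of the 3 Tet enzymes higher.

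Of 14 tested germ cell genes, 5 rose, 7 fell and 2 did not pass. Sycp3, a protein of the synaptonemal complex, had 9.67 and 9.16 CPM at D9, against 52.4 and 57.8 CPM at D4 (-2.55 ± 0.16). Ddx4 (Vasa), an RNA helicase of germ cells, had 5.95 and 6.25 CPM at D9, against 31.7 and 37.2 CPM at D4 (-2.49 ± 0.27). Both were several-fold lower in both D9 libraries. Kit, a receptor that several lineages share, had 70.3 and 67.9 CPM at D9, against 22.5 and 18.9 CPM at D4 (1.74 ± 0.11), and Prdm1 (Blimp1), which specifies germ cells, had 20.1 and 18.2 CPM at D9, against 21.2 and 21.3 CPM at D4 and did not pass.

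Genes that mark trophoblast rose in 13 of 15 tested cases and fell in 0. The median was 3.27, or 2.71 with members at 0 on 1 day set to their bound. Many of these genes also serve other lineages, such as Hand1 and Cdx2 above and Gata3, of surface ectoderm and trophoblast, which had 16.3 and 17.8 CPM at D9, against 3.76 and 2.73 CPM at D4 (2.39 ± 0.18). Krt7, a keratin of simple epithelium, had 60.3 and 56.3 CPM at D9, against 8.88 and 9.08 CPM at D4 (2.70 ± 0.10). Plac1, a placental gene, had 4.83 and 4.66 CPM at D9, against 0 and 0.0593 CPM at D4, a ratio of 159.6-fold (95% counting interval 28.3 to 6338). Gcm1, which directs the syncytial layer, had 0.478 and 0.423 CPM at D9, against 0.835 and 0.712 CPM at D4 and did not pass.

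Replication, ribosomal and respiratory genes fell by small amounts. Of 25 tested genes of replication and mitosis, 18 fell and 2 rose, with a median of -0.47, or -0.33 with library size alone. Mcm2, a subunit of the replicative helicase, had 310.1 and 309.9 CPM at D9, against 554 and 537 CPM at D4 (-0.82 ± 0.05). Ccnb1, the mitotic cyclin, had 283 and 286 CPM at D9, against 468 and 459 CPM at D4 (-0.70 ± 0.05), and Mki67, the proliferation antigen, had 451 and 476 CPM at D9, against 455 and 460.4 CPM at D4 and did not pass. All 30 of 30 tested ribosomal protein genes fell, with a median of -0.53, and 28 did with library size alone. Rps2 had 2532 and 2640.2 CPM at D9, against 4289 and 3951 CPM at D4 (-0.67 ± 0.06), but such genes share reads with near-identical copies, so single values are uncertain. Nuclear genes of the respiratory chain fell in 15 of 18 tested cases, with a median of -0.35, and in 9 with library size alone. Eef1a1, the elongation factor with the highest FPKM on both days, had 6354 and 6465 FPKM at D9, against 8713 and 8416 FPKM at D4. Its log2 change from counts on the TMM scale was -0.56 ± 0.07. Ftl1, the ferritin light chain, was among the 10 highest genes by FPKM at D4 but not at D9. It had 2209 and 2226 FPKM at D9, against 5602 and 5208 FPKM at D4, and a TMM-scale change of -1.43 ± 0.07. The falls of Eef1a1 and Ftl1 are smaller in the deposited FPKM values, which do not carry that scaling.

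D cyclins and their inhibitors rose in 9 of 15 tested cases and fell in 2. Ccnd2, cyclin D2, had 385 and 358 CPM at D9, against 16.3 and 17.8 CPM at D4, a log2 change of 4.45 ± 0.08 (adjusted p = 1.20e-13). Ccnd3, cyclin D3, had 267 and 266 CPM at D9, against 109 and 105 CPM at D4 (1.32 ± 0.06), and Ccnd1, cyclin D1, had 140.3 and 142 CPM at D9, against 139.9 and 143 CPM at D4 and did not pass. Per gene length, Ccnd2 had 63.8 and 59.6 FPKM at D9, against 2.42 and 2.70 FPKM at D4, and Ccnd1 had 36.7 and 37.2 FPKM at D9, against 33.01 and 34.1 FPKM at D4, so their order by level was not the same on the 2 days. Myc, a transcription factor that promotes growth in many tissues, had 40.96 and 41.9 CPM at D9, against 21.8 and 20.4 CPM at D4 (0.98 ± 0.13).

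In glycolysis, 9 of 21 tested genes rose, 6 fell and 6 did not pass. With library size alone 11 rose and 5 fell, and without the ES libraries or with the 4 libraries alone 9 rose and 9 fell. Slc2a3 (Glut3), a glucose transporter of neurons and early embryos, had 2607 and 2654 CPM at D9, against 1221 and 1229 CPM at D4 (1.10 ± 0.07). Slc2a1 (Glut1), the widespread transporter, had 1129.6 and 1155 CPM at D9, against 1666 and 1717 CPM at D4 (-0.57 ± 0.06). Ldha, the subunit that favours lactate, had 1684 and 1632 CPM at D9, against 1009 and 986 CPM at D4 (0.73 ± 0.07), and Ldhb, the heart subunit, had 176 and 184 CPM at D9, against 329 and 318 CPM at D4 (-0.85 ± 0.08). The 2 members of each pair thus moved in opposite directions on every scaling tried.

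Cholesterol synthesis genes rose in 16 of 20 tested cases and fell in 0, with a median of 0.66. Hmgcs1, which makes the precursor of mevalonate, had 386 and 375 CPM at D9, against 182 and 179 CPM at D4, a log2 change of 1.08 ± 0.06 (adjusted p = 1.18e-09). Insig1, which holds the pathway back, had 125 and 117 CPM at D9, against 65.3 and 70.6 CPM at D4 (0.84 ± 0.08). Both genes were higher in both D9 libraries. Sqle and Fdft1, of the squalene steps, did not pass (0.07 ± 0.06 and 0.10 ± 0.06), but both passed upward with library size alone (adjusted p = 0.006463 and 0.003796).

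The window of Hmgcs1 (RefSeq, GRCm38.p6, chr13:119690101-119690350, + strand, upstream of the start site) is shown as that of the enzyme with the largest change in this list. The capitals mark TCACCCCAC, a sterol regulatory element bound by SREBP factors, found 137 bases before the start. It was present in 163 of 32817 windows (0.497%), searched on both strands.
Hmgcs1: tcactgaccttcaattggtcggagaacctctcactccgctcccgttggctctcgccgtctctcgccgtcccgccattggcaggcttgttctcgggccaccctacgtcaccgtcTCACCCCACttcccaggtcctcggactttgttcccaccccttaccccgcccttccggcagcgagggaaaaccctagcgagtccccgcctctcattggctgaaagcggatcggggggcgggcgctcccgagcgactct

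Of 14 tested genes of the integrated stress response, 7 rose and 1 fell, and 5 in all passed without either of the D4 libraries. Psat1, an enzyme of serine synthesis, had 230.2 and 235 CPM at D9, against 144 and 138 CPM at D4 (0.72 ± 0.09), and Atf4, the factor that drives the response, had 176 and 170.0 CPM at D9, against 177 and 164 CPM at D4 and did not pass. Of 12 tested p53 targets, 4 rose and 6 fell. Cdkn1a (p21), a cell cycle inhibitor, had 209 and 204 CPM at D9, against 118 and 131 CPM at D4 (0.73 ± 0.06), while Ccng1, cyclin G1, had 344 and 337 CPM at D9, against 478 and 468 CPM at D4 (-0.48 ± 0.08) and Bax, a killer protein of the Bcl2 family, had 141 and 144 CPM at D9, against 192 and 200.3 CPM at D4 (-0.47 ± 0.07). This list was divided rather than moved in 1 direction.

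The labels call the cells mouse ES cells and the source embryoid body. The ES factors Pou5f1, Nanog and Sox2 were present in all 4 libraries, beside the markers of mesoderm, endoderm and neural cells above. Markers of other cell types were checked as well. Of 10 leukocyte markers, 8 were tested, 1 rose and 2 fell, and 1 in all passed without the first D4 library. Their summed level was 20.98 and 25.94 CPM at D9, against 28.5 and 26.9 CPM at D4. C1qa and Mpo were at 0 in all 4 libraries and Ptprc (CD45), of all leukocytes, had at most 0.0531 CPM. Csf1r, a receptor of macrophages and trophoblast, was the one that rose, with 6.75 and 8.79 CPM at D9, against 0.119 and 0 CPM at D4, a ratio of 131-fold (95% counting interval 35.8 to 1083). Of 13 skeletal muscle markers, 3 rose and 3 fell, with a summed level of 25.02 and 25.1 CPM at D9, against 108.9 and 114.4 CPM at D4. Most of that level at D4 was Tnnt1, slow troponin T, with 9.09 and 10.4 CPM at D9, against 96.8 and 100.4 CPM at D4 (-3.34 ± 0.12), while Myod1 was at 0 in all 4 libraries. Of 8 keratinocyte markers, 4 rose, with a summed level of 7.86 and 8.95 CPM at D9, against 3.996 and 3.858 CPM at D4, and Flg was at 0. The part of other cell types in the results above was not tested.

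The control series places the step in time. Fgf5 and Lefty1 were highest at D4, with means of 0.0301, 149, 17.6, 2.90, 1.22 and 0.302 CPM of Fgf5 over ES cells, D4, D9, D12, D18 and D28. T was highest at D9, its means being 0.423, 1.13, 22.6, 8.17, 3.27 and 1.05 CPM in that order. Shh had 0.0910, 0.0298, 31.4, 34.9, 28.6 and 5.15 CPM and Afp 0.727, 3.90, 289, 359.7, 211 and 74.7 CPM, both highest at D12. Klf4 was lowest at D4, with 363, 6.90, 30.9, 38.2, 80.8 and 112 CPM. Col1a1 and Igf2 went on upward to D28. Only the means of D9 and D4 were compared by a test here.

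**Figure D4:**
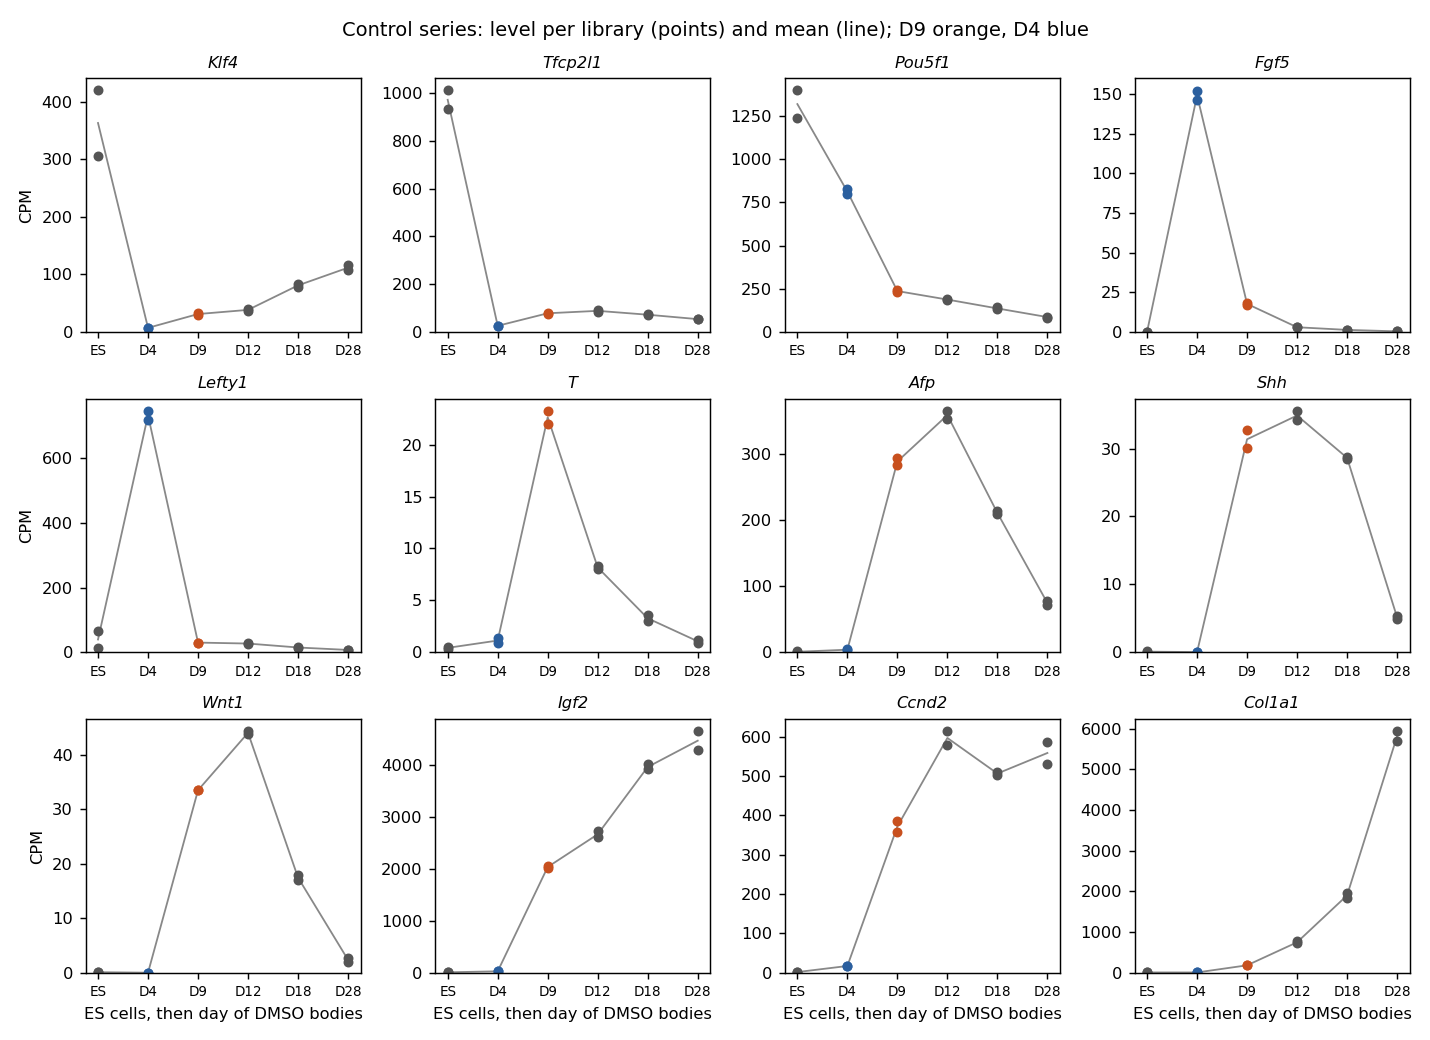
Level in CPM of 12 genes in the 12 control libraries, in the order ES cells, D4, D9, D12, D18 and D28, with a point per library, the D9 libraries in orange, the D4 libraries in blue and a line through the group means. Fgf5 and Lefty1 peak at D4, T at D9, Afp, Shh and Wnt1 at D12, and Igf2 and Col1a1 are highest at D28.

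The same step was measured in the TBBPA embryoid bodies, whose libraries the DMSO comparison does not use. There, 10131 of 16383 tested genes passed (61.8%), of which 5293 rose (32.3%) and 4838 fell (29.5%). Genes shared by both steps are counted here among list genes only, and the lists were chosen with earlier results known. Of the 621 list genes that passed with DMSO, 575 passed with TBBPA in the same direction and 1 in the opposite direction. That gene was Tnnc1, the troponin C of heart and slow muscle, with -0.61 ± 0.18 with TBBPA and 0.30 ± 0.12 with DMSO, and its DMSO call (adjusted p = 0.0466) was lost without the second D4 library (0.3234) or without either D9 library (0.1617 and 0.1012). Pou5f1 changed by -2.28 ± 0.13 with TBBPA and -1.78 ± 0.07 with DMSO, Klf4 by 2.83 ± 0.19 and 2.16 ± 0.17, and Afp by 5.44 ± 0.57 and 6.21 ± 0.15. The largest rises of the DMSO step were large with TBBPA as well, such as Postn, the matrix protein periostin, with 9.18 ± 0.21 against 8.27 ± 0.16. The plot of both steps shows most genes along the diagonal.

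A test of the difference between the steps, in 1 fit of all 22 libraries, called 39 of 16383 genes (0.238%). The step was higher with TBBPA for 23 (0.14%) and lower for 16 (0.0977%). These calls rest on single libraries. Their number was 1 without the second D4 DMSO library, 2 without the first D9 DMSO library, 10 or 11 without any 1 of the other D4 libraries, the second D9 DMSO library or the 100 nM D9 library, and 68 without the 10 nM D9 library. With the D4 and D9 libraries alone it was 231. Pim2, a kinase that supports cell survival, had the smallest p. With TBBPA it had 38.7 and 48.7 CPM at D9 and 303 and 336 CPM at D4, and with DMSO 59.7 and 57.8 CPM at D9, against 192 and 201 CPM at D4, a difference of -1.13 ± 0.12 (adjusted p = 4.47e-05). Ccnd2 had 506 and 424 CPM at D9 and 11.3 and 9.46 CPM at D4 with TBBPA, against a smaller step with DMSO (1.03 ± 0.15, adjusted p = 0.00753). Trp53i11, a p53-induced gene, differed by 0.67 ± 0.11, Pdzd4, a PDZ protein, by -0.66 ± 0.10 and Zfp36l2, which destabilises mRNA, by -0.64 ± 0.10. Among list genes, the step of Rspo1, an R-spondin, was 0.38 ± 0.17 with TBBPA and -0.95 ± 0.17 with DMSO (difference 1.33 ± 0.25, adjusted p = 0.0252). Nnat, an imprinted membrane protein of neurons, had a smaller rise with TBBPA, 4.68 ± 0.11 against 5.46 ± 0.08 with DMSO (difference -0.78 ± 0.16). Ldha rose less as well, 0.22 ± 0.07 against 0.73 ± 0.07 with DMSO (difference -0.52 ± 0.10).

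**Figure D5:**
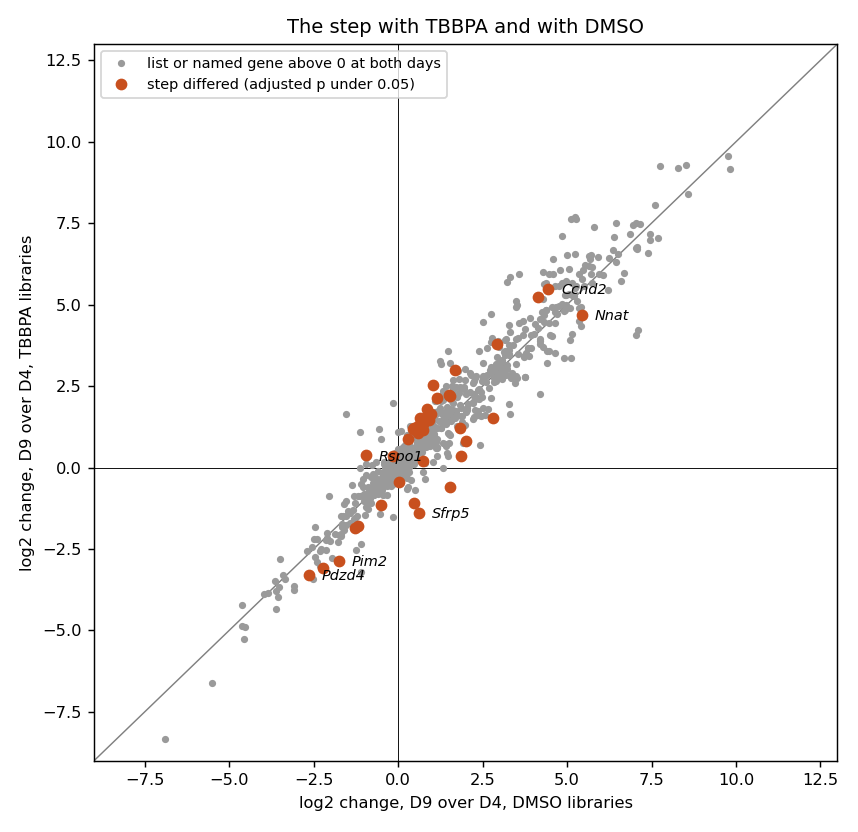
Log2 change of single genes, D9 over D4, with TBBPA on the vertical axis and with DMSO on the horizontal axis, with a line of equality. Grey points are list and named genes above 0 at both days in both, and orange points are 38 of the 39 genes, over all genes tested, whose steps differed at an adjusted p under 0.05, 1 further gene at 0 with TBBPA at D4 being left out; Pim2, Pdzd4, Nnat and Sfrp5 lie below the line and Ccnd2 and Rspo1 above it.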

How the data were processed

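RNA was extracted with Trizol and a column kit and sequenced at BGI, per the labels' protocols. HISAT, Bowtie2 and the GRCm38.p5 build are named in the submitters' processing notes, without versions. The deposited tables give an expected count and an FPKM value per gene and library, per the file headers, and a gene absent from a table was set to 0. Expected counts were rounded and fitted with edgeR 4.0.16 (R 4.3.3), by the robust quasi-likelihood test after TMM scaling and a low-count filter (filterByExpr, at least 10 counts and 15 in total), over the 12 control libraries (6 residual degrees of freedom). The Benjamini-Hochberg adjustment ran over the whole tested table, and 0.05 was the threshold. The TBBPA step and the difference between the steps came from a fit of all 22 libraries. The 10 nM and 100 nM libraries were pooled as 1 group there, so dose is part of that spread. SE is the log2 change divided by the square root of F. Deposited FPKM values served for levels between genes and, with limma 3.58.1 on log2(FPKM + 1) and log2(FPKM + 0.1), as an alternative. DESeq2 1.42.0, other scalings, filters, sample sets, a replicate block and leaving out each library were further alternatives.

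Genes were named by a rule: the 15 largest rises and falls at 10 CPM or more, the 10 highest genes at 0 on the other day, up to 8 passing and 3 other members of each list with those against their list, the 10 highest by FPKM, and the 5 smallest p of the difference. Those rises and falls were taken only from genes that passed and whose D9 and D4 libraries did not overlap. The members and lists were chosen with earlier results of these data known. On simulated data for D9 against D4 in DMSO (16203 genes, 200 changed), the test recovered 67.2% of changes of 1.5-fold, 77.6% of 2-fold and 89.4% of 4-fold, and 5.45% of its calls were unchanged genes. For the difference between steps it recovered 47.8%, 83.6% and 97% (16383 genes), and 8.98% of its calls there were unchanged genes. Far fewer genes changed in the simulation than the 60.8% that passed in the data for D9 against D4 in DMSO. The simulated rates for that comparison therefore need not hold in the data. Counting intervals (95%) and the floor of 3 counts cover counting error only. Promoter windows are RefSeq's on GRCm38.p6, matched by symbol for 552 of 777 list members. The files' build is an earlier patch of that assembly. Results for some members are not reported here.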

Additional observations from a re-analysis of the deposited data

Results flagged for a closer look

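The step between D4 and D9 differed between the TBBPA and the DMSO embryoid bodies, by a test of the difference itself, for 11 of the named or listed genes. Of these, Pim2, Ccnd2, Trp53i11, Pdzd4 and Zfp36l2 were named because of their small p in this same test. Among the 760 tested list members 7 differed, beside 39 of 16383 genes tested (0.238%). Each value is the log2 step with TBBPA minus that with DMSO. The step was higher with TBBPA for Rspo1 (1.33), Ccnd2 (1.03), Trp53i11 (0.67), Fgf15 (0.58) and Cdkn1a (0.41). It was lower for Sfrp5, a secreted Frizzled-related protein (-2.01), Pim2 (-1.13), Nnat (-0.78), Pdzd4 (-0.66), Zfp36l2 (-0.64) and Ldha (-0.52). Sfrp5 had 1.56 and 0.928 CPM at D9 and 3.66 and 2.85 CPM at D4 with TBBPA, and 2.71 and 3.81 CPM at D9, against 1.79 and 2.43 CPM at D4 with DMSO. Its DMSO step did not pass in edgeR's test (adjusted p = 0.0535). Fgf15, a ligand of the midbrain and gut, changed by 0.88 ± 0.08 with TBBPA and 0.30 ± 0.08 with DMSO, and Cdkn1a by 1.14 ± 0.06 and 0.73 ± 0.06. The number of genes called in this test moves with single libraries, and 1 library stands behind each dose and day of TBBPA.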

How the results depend on the processing

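The count of 9849 genes for D9 against D4 stayed within 1.5 times in every setting tried, at 8935 with DESeq2, 9877 with its size-factor type of scaling (RLE), 9770 with library size alone, 9057 with limma on log2(FPKM + 1), 10882 with the 4 libraries alone, 11288 without the ES libraries and 8371 to 8560 with 1 library left out. No called gene changed direction among all genes in any of these. The count for the TBBPA step was 8757 to 9347 with 1 library left out, against 10131. The number of genes that differed between the steps, 39, was 231 with the D4 and D9 libraries alone and 1 to 68 with 1 library left out. The cause was not tested. Of named genes, Pkm, the pyruvate kinase, changed sign, being -0.0028 without passing (adjusted p = 0.9753), 0.1381 with library size alone, 0.1405 with limma at a pseudocount of 0.1 and 0.1404 at 1. Zfp42, Pecam1, Dnmt1, Dusp6, Notch1, Mki67, Tpm1, Wnt9a and Atf4, which did not pass, passed with library size alone. Leaving out the ES libraries turned 31 named genes, Esrrb and Elavl3 among them, from not passing to passing, and 0 the other way. Respiratory genes passed in 9 cases with library size alone or limma, against 15. By mean level, 27.7% of genes under 1 CPM were called and 69.9% of those over 100 CPM. The part of depth in this was not tested. A replicate block gave 9779 calls. Whether the replicate numbers pair the samples was not settled. The correlation of D9 and D4 deviations was -0.005978, and the largest between control groups was 0.1237, for D4 and D18. Such correlations cannot show how the cultures were run.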

Other observations

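Called genes were not spread evenly over the chromosomes. On chromosome 8, 24.2% of 834 tested genes rose and 38.6% fell, with a median log2 change of -0.14 with DMSO and -0.13 in the libraries with TBBPA. On the X chromosome, 38.0% of 595 tested genes rose, with a median of 0.17 with DMSO and 0.20 with TBBPA. The medians of the other chromosomes with DMSO ran between -0.08 (chromosome 6) and 0.12 (chromosome 3).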
